A study of Mus musculus with 8 samples.

Results

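The genes described here are the MHC class II presentation genes of the mouse: H2-Aa, H2-Ab1, H2-Eb1, H2-DMa, H2-DMb1, H2-DMb2, H2-Oa, H2-Ob, Cd74 and Ciita. They were chosen by name, 10 of the 32285 genes counted, and each of the 10 was detected in each of the 5 expression libraries. UMIs, the counted RNA molecules, were obtained from sorted living immune cells taken from the deep cervical lymph nodes of C57BL/6 mice on day 20 after an injection into the brain. The depleted anti-CTLA-4 and the depleted isotype libraries came from mice that carried GL261, a mouse glioma line, and had been given anti-CD20, an antibody that removes B cells, together with anti-CTLA-4 or isotype IgG. The anti-CTLA-4 and isotype libraries came from GL261-bearing wild-type mice with their B cells, given anti-CTLA-4 or isotype IgG. The saline control library came from mice injected with DPBS in place of tumour cells, and an antibody for those mice is not given in the sources used here, nor are the age, the sex or the number of mice behind a library. The anti-CTLA-4, isotype and saline control nodes also gave a B cell receptor library each, so 8 libraries were used in all.

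Each group had 1 library, so a difference between groups has no replicate check, and no test between groups was possible. The expression libraries held 54715065 to 63497466 UMIs, and 8305 to 10599 cells were kept, with medians of 4258 to 6018 UMIs per cell, deepest after depletion. Cell classes came from clusters made without the 10 genes and were named from marker genes that include none of them, so each class is called by the type its markers resemble. Of follicular B-like cells, 94.28% to 95.8% carried a receptor contig in the 3 libraries with B cells, against 0.05479% to 0.1288% of CD4 T-like cells. Pairs of libraries shared 108 to 163 cell barcodes, where 109.5 to 155.6 would be shared by barcodes drawn at random from the full set. The most were shared by the saline control and isotype libraries, 163 against 127.4 for that pair. A pair of clusters came almost wholly from the isotype library. One held 187 isotype cells of 192, was follicular B-like and led by Svil, Sfn and heat shock genes. The other held 222 isotype cells of 226, sat among the T cells, had H2-Aa, H2-Ab1, Cd74 and H2-Eb1 as its leading genes, stayed unnamed and entered no comparison. The T cell values of isotype given below are therefore without these cells.

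Class II molecules display peptides from endosomes to CD4 T cells, and B cells and dendritic cells carry them at all times. The invariant chain CD74 fills the groove of a new dimer and guides it to the endosome, where proteases trim it to a short remnant. H2-DM then exchanges that remnant for peptides, H2-DO binds H2-DM and holds it back, and CIITA is the coactivator that binds the protein complex assembled on the promoters of all these genes. H2-Aa and H2-Ab1 encode the chains of I-A. H2-Eb1 encodes the beta chain of I-E, which does not reach the surface in C57BL/6 mice because they make no I-E alpha chain. On chromosome 17 (build GRCm38.p6) the 8 H2 genes lie between position 34092379, where H2-Oa starts, and position 34316674, where H2-Eb1 ends. Ciita lies on chromosome 16, from position 10480014 to 10531064.

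The promoter stretches below are shown because CIITA acts through the boxes they hold, the X box and, closer to the start, the CCAAT-type Y box. Sequences were taken from RefSeq promoters of GRCm38.p6, windows of 300 bases that were searched on both strands. Capitals mark matches to the X box letters CTA, any 2 bases, AAC, any 2 bases and ATGATG, to the X2 letters TGANGTCA or to the Y core GATTGG, and the letters were chosen after the sequences had been seen. The first 4 stretches carry the X box and the Y core, at chr17:34305765-34305820 (H2-Eb1), chr17:34153086-34153142 (H2-DMb1), chr17:34145115-34145171 (H2-DMb2) and chr17:34238807-34238860 (H2-Ob), all on the plus strand. H2-Aa, at chr17:34287859-34287916 on the minus strand, carries X2 letters and the Y core, and H2-Oa, at chr17:34092291-34092348 on the plus strand, carries the Y core.
H2-Eb1: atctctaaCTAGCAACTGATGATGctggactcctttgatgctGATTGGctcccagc
H2-DMb1: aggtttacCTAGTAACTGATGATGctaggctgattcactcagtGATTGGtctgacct
H2-DMb2: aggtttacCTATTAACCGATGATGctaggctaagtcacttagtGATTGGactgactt
H2-Ob: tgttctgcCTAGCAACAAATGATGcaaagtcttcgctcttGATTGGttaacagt
H2-Aa: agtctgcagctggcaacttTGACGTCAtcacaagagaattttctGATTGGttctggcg
H2-Oa: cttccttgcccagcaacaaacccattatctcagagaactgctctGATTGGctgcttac
The X box letters occurred in 5 of 32851 promoters (0.01522%), those of H2-DMb2, H2-DMb1, H2-Ob, H2-Eb1 and Frmd4b, and 4 promoters (0.01218%) held them with the Y core on the same strand. Between the boxes lay 18 bases in H2-Eb1, 19 in H2-DMb1, 19 in H2-DMb2 and 16 in H2-Ob. The Y core occurred in 5292 promoters (16.11%), the longer Y letters CTGATTGG, which contain it, in 1346 (4.097%), and the X2 letters in 2902 (8.834%). Of the pair of windows of H2-DMa, one held the Y core alone. H2-Ab1, Cd74 and Ciita had no entry.

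In follicular B-like cells, which make up most of the B lineage here, all 10 genes were detected and their levels lay close together in the 3 libraries with B cells. Levels are given as UMIs per 10000 UMIs of the class, with no correction for gene length, and they are compared between classes or libraries of 1 gene, not between genes. Among the chains of the displayed molecule, H2-Aa stood at 76.7 in the anti-CTLA-4 library (4258 cells), 75 in the isotype library (3622 cells) and 71.5 in the saline control (3621 cells). H2-Ab1 stood at 49, 50.6 and 48.3 in the anti-CTLA-4, isotype and saline control libraries, and H2-Eb1 at 50.7, 49.4 and 47.8. Cd74, the invariant chain, stood at 264 in the anti-CTLA-4, 262 in the isotype and 250 in the saline control library. The 18 follicular B-like cells of the depleted anti-CTLA-4 library and the 12 of the depleted isotype library were like the others in H2-Aa (75.5 in depleted anti-CTLA-4, 65.1 in depleted isotype) and in Cd74 (261 in depleted anti-CTLA-4, 240 in depleted isotype).

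The genes of peptide loading and of control varied little between these libraries as well. H2-DMa, the alpha chain of H2-DM, stood in follicular B-like cells at 5.78 in the anti-CTLA-4, 5.70 in the isotype and 4.93 in the saline control library. H2-Oa and H2-Ob, the chains of the inhibitor H2-DO, stood at 4.69 and 7.17 in the anti-CTLA-4, 4.66 and 6.63 in the isotype and 3.84 and 6.59 in the saline control library. Ciita stood at 1.53 in the anti-CTLA-4, 1.33 in the isotype and 1.32 in the saline control library. The class is not uniform: 1 of its clusters, 1028 cells led by Shmt1 and Srm, scored highest for the activated B markers and had H2-Oa at 2.38 in the anti-CTLA-4, 2.57 in the isotype and 2.11 in the saline control library, against 3.51 to 5.69 in the other clusters of these libraries.

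**Figure D1:**
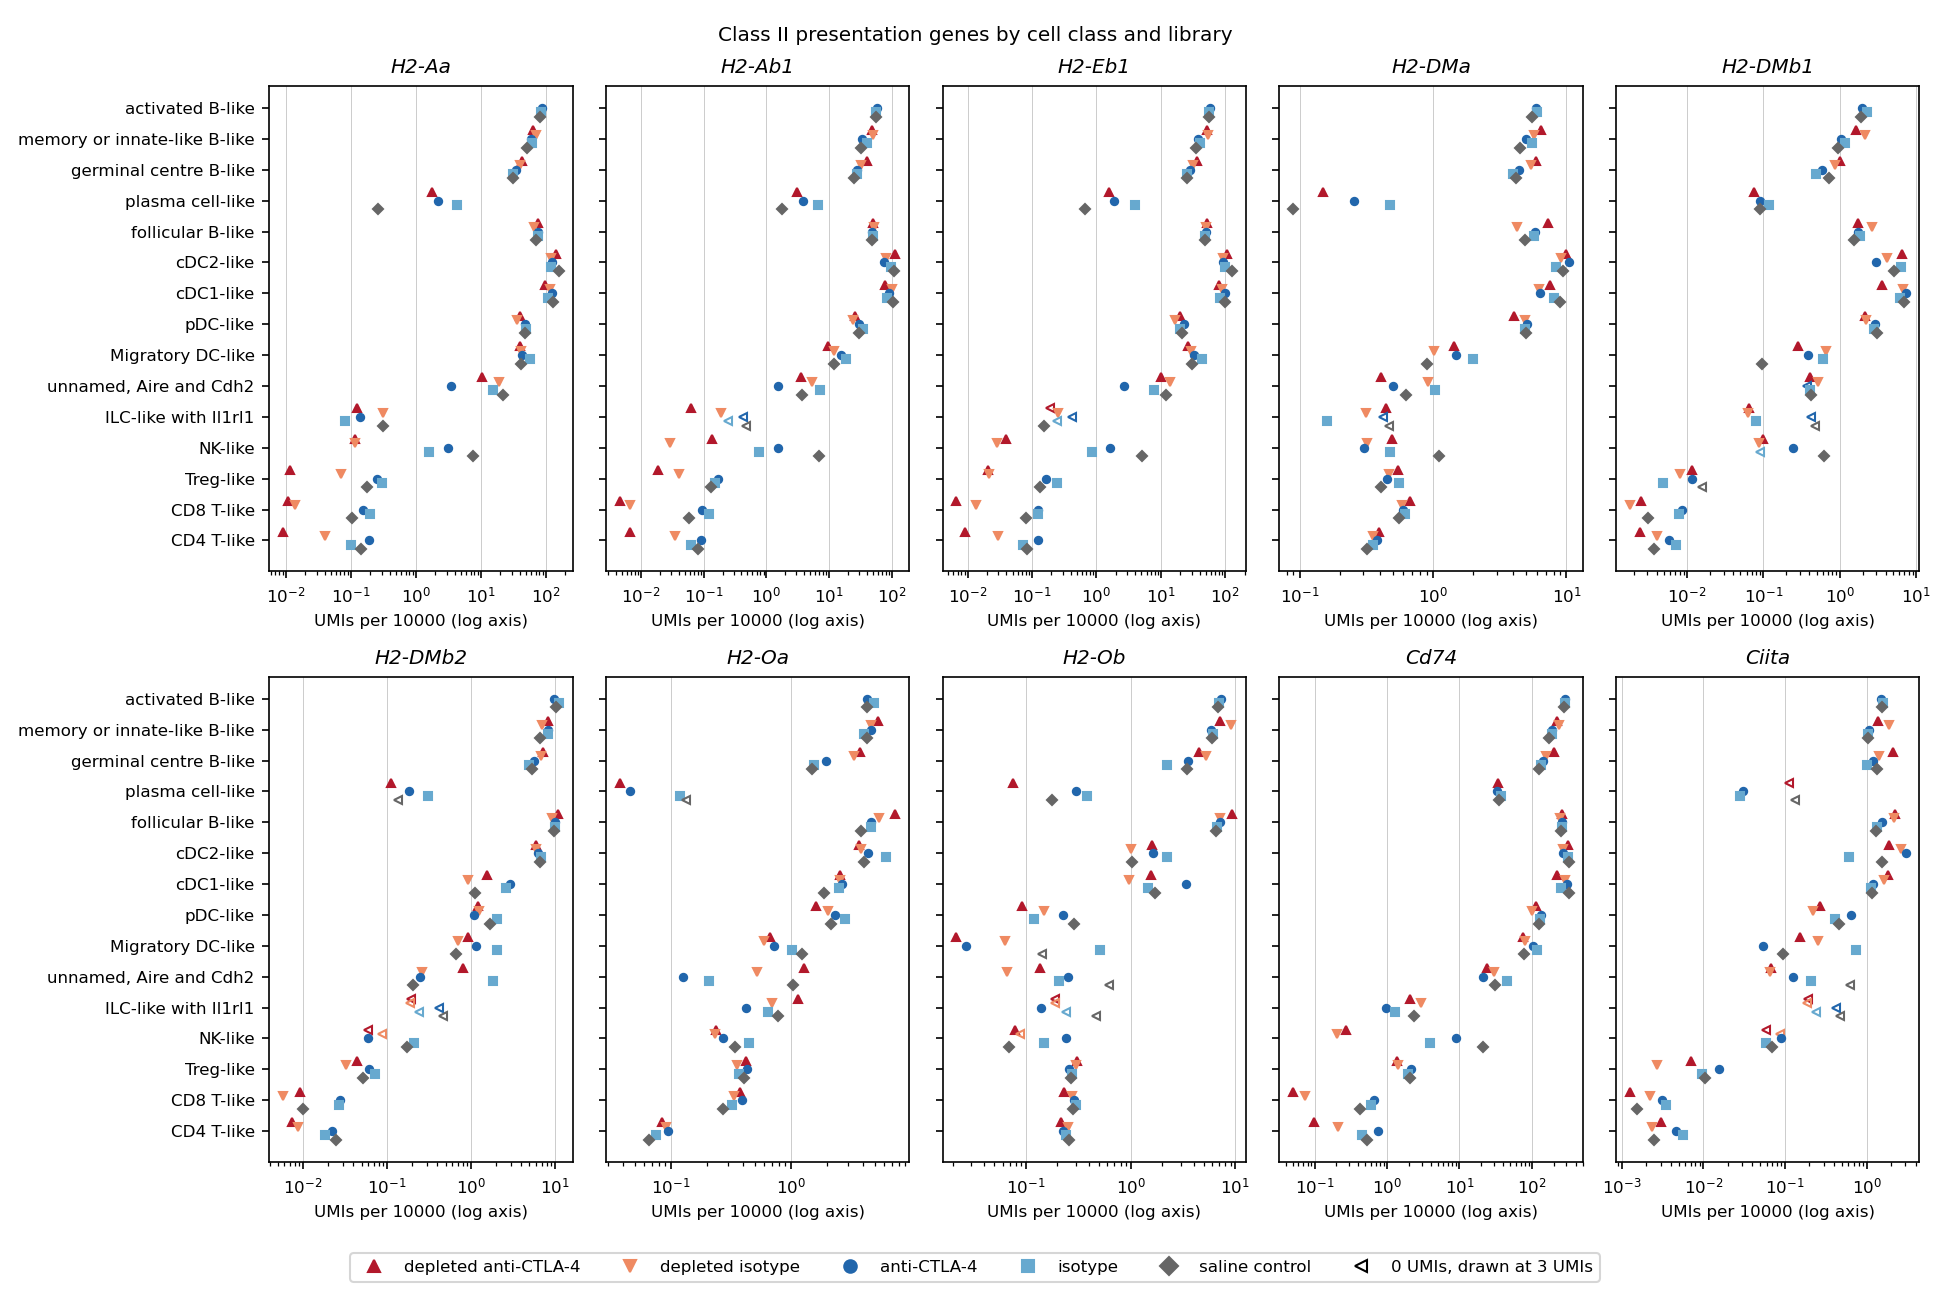
UMIs per 10000 (log axis) of each of the 10 genes by cell class, with 1 point per library, drawn without intervals. Cd74 was between 250 and 264 in follicular B-like cells of the 3 libraries with B cells, and between 0.0702 and 0.697 in T cells of the 5 libraries.

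In follicular B-like cells no class II gene passed 1.5-fold between the isotype and saline control libraries, nor between the anti-CTLA-4 and isotype libraries. A change was called past 1.5-fold in either direction with an exact conditional binomial 95% interval that excludes 1, for genes with at least 100 UMIs over both sums. Intervals cover counting error only, and the spread between mice is not in them. Isotype over saline control, 0 of 10 genes passed, against 2.29% of all genes tested. The median ratio of the 10 was 1.05 (log2 0.07), against 0.985 over all genes. The highest was H2-Oa at 1.21 (1.17 to 1.25). Anti-CTLA-4 over isotype, 0 of 10 passed, against 1.57% of all genes, with a median ratio of 1.01 (log2 0.02) and Ciita the highest at 1.14 (1.08 to 1.21). Without the cluster that came almost wholly from the isotype library, a check added after the data had been seen, the median log2 ratios were 0.07 isotype over saline control and 0.02 anti-CTLA-4 over isotype. Of the other pathway genes, a list of 35 of which 34 had a row, none of the 30 with enough UMIs passed in these cells in either comparison.

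By H2-Aa and Cd74, the order among B cell states was activated, follicular, memory or innate-like, germinal centre and plasma cell-like, from high to low. Activated B-like cells, with immediate early genes such as Nr4a1 and Egr1, had H2-Aa at 88.6 in the anti-CTLA-4, 85.2 in the isotype and 82.9 in the saline control library, and Cd74 at 288, 291 and 275 in the same libraries. Over follicular B-like cells the median ratio of the 10 genes was 1.05, 1.11 and 1.14 in the anti-CTLA-4, isotype and saline control libraries. In no library did a member pass 1.5-fold, against 8.7%, 6.81% and 6.95% of all genes, so activated and follicular B-like cells stand next to each other in the order, closer than the threshold. Memory or innate-like B-like cells, with Fcrl5 and Zbtb32, had H2-Aa at 58.7 in the anti-CTLA-4, 60.7 in the isotype and 51.0 in the saline control library, and Cd74 at 187, 190 and 170. Their median ratio over follicular B-like cells was 0.758, 0.815 and 0.724 in the anti-CTLA-4, isotype and saline control libraries. H2-DMb1 fell past 1.5-fold in each of them and H2-Ab1 in the saline control, against 10%, 9.46% and 11.1% of all genes that fell.

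Germinal centre B-like cells are the dividing and mutating B cells of the follicle. In all 3 libraries class II RNA made up a smaller share of UMIs in germinal centre B-like cells than in follicular B-like cells. H2-Aa stood at 35.1 in the anti-CTLA-4 library (183 cells), 30.9 in the isotype library (75 cells) and 31.6 in the saline control (28 cells). Cd74 stood at 144 in the anti-CTLA-4, 132 in the isotype and 125 in the saline control library. These shares are all below each follicular B-like level. Germinal centre B-like cells were deeper, with medians of 13044 UMIs per cell in anti-CTLA-4, 17810 in isotype and 9520 in the saline control. Follicular B-like cells had medians of 3470, 3818 and 3933 in that order, and class II UMIs per cell were not compared. The ratio over follicular B-like cells was 0.457 for H2-Aa in the anti-CTLA-4 library, 0.412 (0.400 to 0.424) in the isotype library and 0.442 in the saline control, and for Cd74 it was 0.546, 0.504 (0.497 to 0.512) and 0.502. In each library 8 of the 10 genes fell, against 19.5%, 19.9% and 11.8% of all genes that fell in the anti-CTLA-4, isotype and saline control libraries. The median ratio of the 10 was 0.551, 0.499 and 0.517 in that order, against 1.03, 1.03 and 1.15 over all genes. H2-DMa and Ciita were the members that did not pass. H2-DMa had ratios of 0.768, 0.696 and 0.850 in the anti-CTLA-4, isotype and saline control libraries, and Ciita 0.790, 0.756 (0.635 to 0.894) and 1.03 (0.774 to 1.35).

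The inhibitor H2-DO was lower, relative to follicular B-like cells, than its target's alpha chain. H2-Oa stood in germinal centre B-like cells at 1.98 in the anti-CTLA-4, 1.56 in the isotype and 1.51 in the saline control library, ratios over follicular B-like cells of 0.421, 0.334 and 0.394. H2-Ob stood at 3.56, 2.23 and 3.45 in the anti-CTLA-4, isotype and saline control libraries. H2-DMb1, a beta chain of H2-DM, was low too, with ratios of 0.338 in the anti-CTLA-4 and 0.273 in the isotype library. Of 30 other pathway genes, 4 rose and 8 fell over follicular B-like cells in the anti-CTLA-4 library, and 5 rose and 8 fell in the isotype library. Those that fell in both were Ctss (0.416 in anti-CTLA-4, 0.443 in isotype), the protease that trims the invariant chain in B cells, Ifngr2 (0.308 and 0.312 in the same order), Irf1 (0.283 and 0.440), Irf4 (0.431 and 0.420) and Cd83 (0.538 and 0.478), which protects surface class II from ubiquitination. Those that rose in both were Lgmn (1.80 in anti-CTLA-4, 1.55 in isotype), Nfyb (1.61 and 2.01), a subunit of the factor that binds the Y box, and Mif (1.58 and 2.01), a ligand of CD74. Among the rest, Ctsl and Ifi30 fell and Bcl6 rose in the anti-CTLA-4 library alone past the threshold, and H2-Eb2, Nfya and Cxcr4 fell and Socs1 and Cd44 rose in the isotype library alone, where the difference between libraries was not tested.

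Between libraries the germinal centre B-like cells were compared anti-CTLA-4 over isotype, where both had at least 50 cells. H2-Ob rose, at 1.60 (1.41 to 1.82), the 1 member of 10 to pass, against 5.32% of all genes that rose. A count of 1 in 10 is too small to set apart from that share. H2-Oa had a ratio of 1.27 and the median of the 10 was 1.13 (log2 0.18). Of 28 other pathway genes, March1 (2.06), the ligase that marks class II for degradation, and Rfx5 (1.67), a subunit of the X box factor, rose, while Ifi30 (0.608) and Irf1 (0.650) fell. After depletion 40 germinal centre B-like cells were left in the anti-CTLA-4 and 25 in the isotype library, too few for a count of calls. In them H2-Oa stood at 3.75 in depleted anti-CTLA-4, against 1.98 in anti-CTLA-4, and at 3.35 in depleted isotype, against 1.56 in isotype. The ratios were 1.90 (1.58 to 2.26) under anti-CTLA-4 and 2.15 (1.70 to 2.71) under isotype. Cd74 differed less, with ratios of 1.38 under anti-CTLA-4 and 1.19 under isotype. Whether the germinal centre cells left after depletion are of the same kind as those before it was not tested.

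In plasma cell-like cells, the antibody secreting end of the lineage, all 10 genes had lower levels per 10000 UMIs than in follicular B-like cells. Cd74 was the least reduced. Plasma cell-like medians were 29307.5 UMIs per cell in anti-CTLA-4, 32895 in isotype and 36789 in the saline control. Follicular B-like cells had medians of 3470 to 3933, and class II UMIs per cell were not compared. In the plasma cell-like class H2-Aa stood at 2.19 in the anti-CTLA-4 library (24 cells), 4.28 in the isotype library (43 cells) and 0.269 in the saline control (7 cells), which rests on 6 UMIs. Cd74 stood at 32.6, 37.4 and 34.8 in the anti-CTLA-4, isotype and saline control libraries, ratios over follicular B-like cells of 0.124, 0.143 and 0.139. H2-Ab1 came next in the isotype library, at 6.56 and a ratio of 0.130 (0.121 to 0.138), and had ratios of 0.0788 in the anti-CTLA-4 and 0.0361 in the saline control library. All 10 genes fell in each library, against 55.8%, 66.3% and 44.4% of all genes. Their median ratio was 0.0394, 0.0619 and 0.0308, against 0.560, 0.493 and 0.583 over all genes in the anti-CTLA-4, isotype and saline control libraries. Ciita had 2 UMIs in the anti-CTLA-4 library, 4 in the isotype library and 0 in the saline control, where the floor of 3 counts is 0.134 per 10000. The members did not fall by 1 factor. H2-Ab1 had 1.76 UMIs per UMI of H2-Aa in the anti-CTLA-4, 1.53 in the isotype and 6.50 (2.73 to 18.8) in the saline control library, against 0.638, 0.675 and 0.676 in follicular B-like cells.

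**Figure D2:**
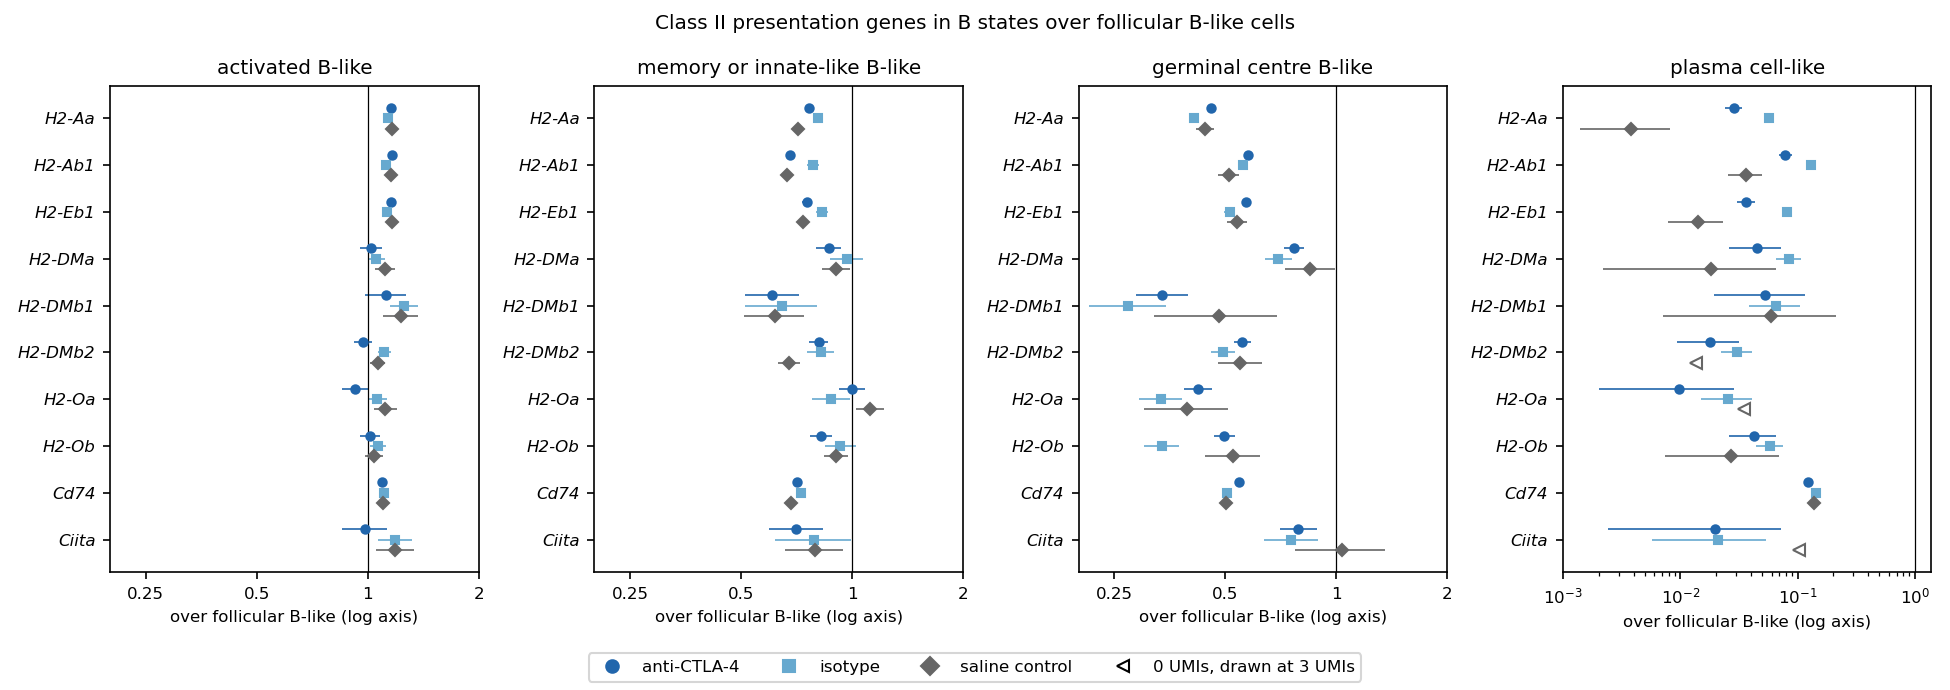
Ratio of each of the 10 genes over follicular B-like cells of the same library (log axis) in 4 B cell states of the 3 libraries with B cells, with exact 95% intervals for counting error. Activated B-like cells lie around 1, germinal centre B-like cells near 0.5 with H2-DMa and Ciita highest, and plasma cell-like cells below 0.2, with Cd74 at 0.124 to 0.143.

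The receptor libraries gave a grouping of B cells that the clusters had not used. Over all B lineage cells, those with an IgG heavy chain had less H2-Aa per 10000 UMIs than those with IgM or IgD. The ratios were 0.364 in the anti-CTLA-4 library (89 and 4342 cells), 0.215 in the isotype library (52 and 3808 cells) and 0.428 in the saline control (15 and 3805 cells). Cd74 gave 0.451, 0.295 and 0.460 in the anti-CTLA-4, isotype and saline control libraries. Of the IgG cells, 69, 18 and 10 were germinal centre B-like in that order, and 26 in isotype were plasma cell-like. The part of these classes in the ratios was not tested. Within germinal centre B-like cells the ratios lay near 1. IgG over IgM or IgD, H2-Aa was 1.05 in the anti-CTLA-4 library (69 and 57 cells), 1.07 in the isotype library (18 and 31 cells) and 0.977 (0.867 to 1.1) in the saline control (10 and 9 cells). Cd74 was 1.09, 1.04 and 0.829 there in the same libraries. All 6 ratios within the germinal centre class thus lay between 0.829 and 1.09, and all 6 over the whole lineage between 0.215 and 0.460. Within plasma cell-like cells of isotype (26 and 7 cells) H2-Aa was 0.721 (0.595 to 0.879) and Cd74 0.939 (0.873 to 1.01).

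Conventional dendritic cells, which carry antigen to T cells, were few and held H2-Aa and Cd74 at or above the follicular B-like level. H2-Aa stood at 126 in depleted anti-CTLA-4 (29 cells), 118 in depleted isotype (43 cells), 126 in anti-CTLA-4 (10 cells), 114 in isotype (24 cells) and 142 in the saline control (22 cells). Cd74 stood at 280 in depleted anti-CTLA-4, 278 in depleted isotype, 286 in anti-CTLA-4, 287 in isotype and 323 in the saline control. The libraries with and without B cells overlap for H2-Aa. For Cd74 both depleted values lie below those of the libraries with B cells. Split by type, H2-Aa stood at 96.7 to 128 in cDC1-like and 120 to 159 in cDC2-like cells. Depleted over not depleted, H2-Aa was 1.00 under anti-CTLA-4 and 1.03 under isotype, and Cd74 0.976 under anti-CTLA-4 and 0.969 under isotype. Other members differed more under isotype, where H2-Ob had a ratio of 0.521 (0.359 to 0.755), H2-DMb2 0.613 (0.495 to 0.760) and Ciita 2.45 (1.63 to 3.80). With fewer than 50 cells a class these are values with counting intervals, and no count of calls was made.

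H2-DO was low in dendritic cells relative to H2-DM. H2-Ob had 0.175 UMIs per UMI of H2-DMa in conventional DC-like cells of the depleted anti-CTLA-4 library, 0.132 in depleted isotype, 0.296 in anti-CTLA-4, 0.230 in isotype and 0.152 in the saline control, against 1.24, 1.16 and 1.34 in follicular B-like cells of the anti-CTLA-4, isotype and saline control libraries. Plasmacytoid DC-like cells, known for type I interferon, went further, with 0.0225 in depleted anti-CTLA-4, 0.0301 in depleted isotype, 0.0440 in anti-CTLA-4, 0.0242 in isotype and 0.0583 in the saline control. The intervals of the plasmacytoid values lie below those of follicular B-like cells in every library. H2-Oa did not separate the classes to that degree, with 0.312 to 0.562 per UMI of H2-DMa in conventional DC-like cells, 0.405 to 0.576 in plasmacytoid ones and 0.780 to 0.818 in follicular B-like cells of the libraries with B cells.

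The beta chains of H2-DM changed places between cell types. In B cells H2-DMb2 gave most of the UMIs: H2-DMb1 had 0.170 UMIs per UMI of H2-DMb2 in follicular B-like cells of the anti-CTLA-4, 0.179 of the isotype and 0.155 of the saline control library. In cDC1-like cells, the cross-presenting type marked by Xcr1 and Clec9a, it had 2.29 in depleted anti-CTLA-4 (9 cells), 7.26 in depleted isotype (20 cells), 2.5 in anti-CTLA-4 (5 cells), 2.34 in isotype (10 cells) and 6.11 in the saline control (7 cells). Plasmacytoid DC-like cells had 1.74, 1.74, 2.68, 1.37 and 1.83 in depleted anti-CTLA-4, depleted isotype, anti-CTLA-4, isotype and saline control libraries, so both types lay above 1 and follicular B-like cells below it in the libraries given. In the anti-CTLA-4 library 1 of the 5 cDC1-like cells held 70% of the H2-DMb1 UMIs, and without the cell highest in the 10 genes the value there turned to 0.750 (0.279 to 1.94). The same step gave cDC1-like values of 2.48 in depleted anti-CTLA-4, 7.21 in depleted isotype, 6.71 in isotype and 8.75 in the saline control. The difference also shows in single cells. More UMIs of H2-DMb1 than of H2-DMb2 were found in 17 of 20 cDC1-like cells in depleted isotype and in 7 of 7 in the saline control, against 82 of 3621 follicular B-like cells in the saline control. It was weakest in the 5 cDC1-like cells of the anti-CTLA-4 library, of which 2 had more H2-DMb1 and 3 more H2-DMb2.

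cDC2-like cells, the type with Sirpa and Clec10a that presents to CD4 T cells, lay between. They had 1.1 UMIs of H2-DMb1 per UMI of H2-DMb2 in depleted anti-CTLA-4 (20 cells), 0.685 in depleted isotype (23 cells), 0.481 in anti-CTLA-4 (5 cells), 0.926 in isotype (14 cells) and 0.772 in the saline control (15 cells). Without the highest cell of each library they had 0.742 in depleted anti-CTLA-4 and 0.2 in anti-CTLA-4. H2-DMb2 itself was lower in cDC1-like than in cDC2-like cells, 1.57 against 5.95 in depleted anti-CTLA-4, 0.930 against 6.01 in depleted isotype, 2.90 against 6.26 in anti-CTLA-4, 2.60 against 6.83 in isotype and 1.12 against 6.70 in the saline control. With finer clusters the order of these types turned round in the anti-CTLA-4 and isotype libraries, where 2 and 7 cDC2-like cells were then left. The genes lie next to each other and are close copies, so reads that match both may have been dropped or assigned to either. How the counting treated them is not given in the sources used here.

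**Figure D3:**
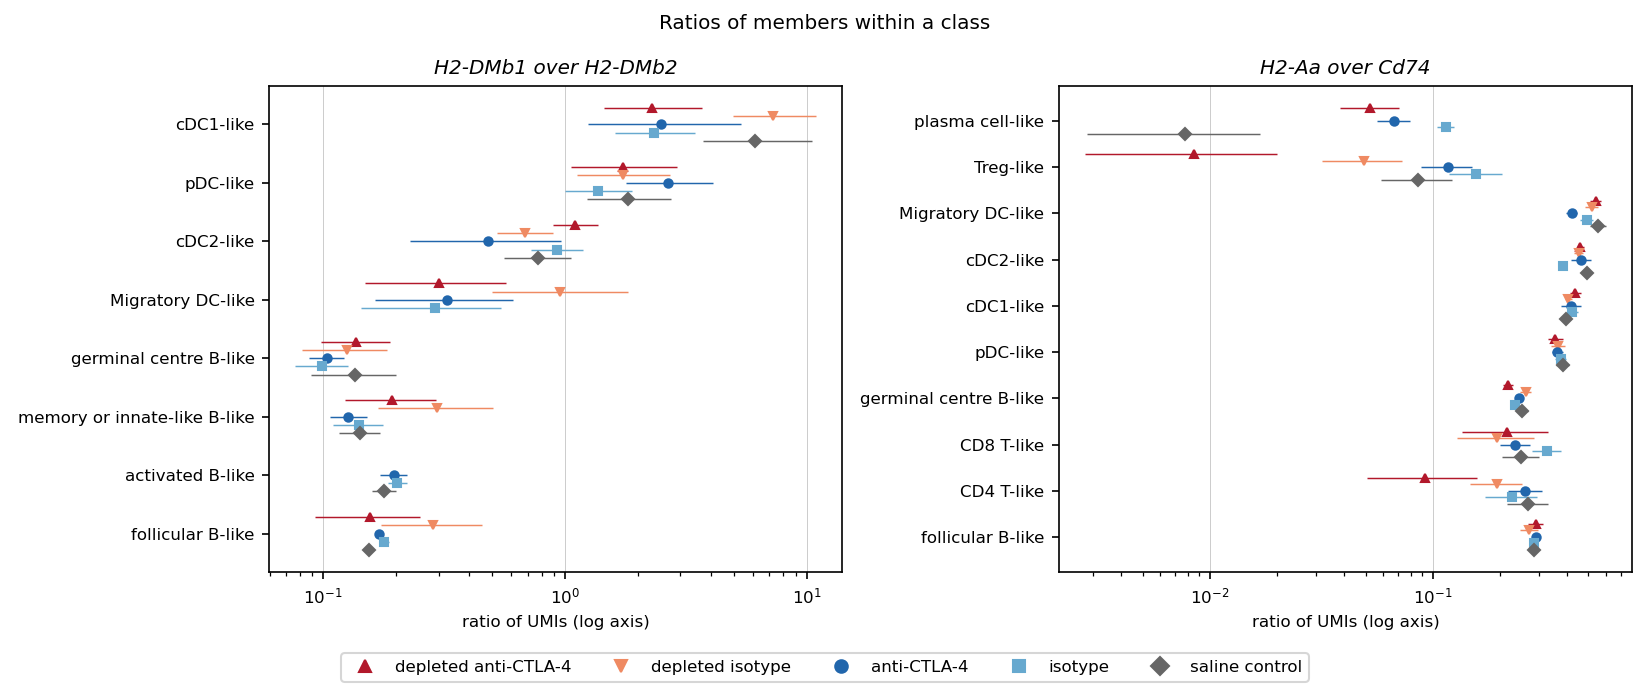
UMIs of H2-DMb1 per UMI of H2-DMb2 and of H2-Aa per UMI of Cd74 (log axes) by cell class, 1 point per library with exact 95% intervals for counting error. H2-DMb1 is below H2-DMb2 in B cell classes (0.155 to 0.179 in follicular B-like cells with B cells present) and above it in cDC1-like and plasmacytoid DC-like cells, and H2-Aa per Cd74 is 0.00853 to 0.157 in Treg-like cells, against 0.271 to 0.291 in follicular B-like cells.

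Migratory DC-like cells, marked by Fscn1 and Ccl22, had less class II RNA than conventional ones. H2-Aa stood at 40.2 in depleted anti-CTLA-4 (47 cells), 42.2 in depleted isotype (34 cells), 43.6 in anti-CTLA-4 (39 cells), 58.0 in isotype (19 cells) and 42.2 in the saline control (24 cells). H2-Ab1 stood at 9.46 in depleted anti-CTLA-4, 11.8 in depleted isotype, 15.7 in anti-CTLA-4, 18.6 in isotype and 12 in the saline control. Every one of these values lies below its conventional counterpart in the same library. The ratio to conventional DC-like cells was 0.0942 to 0.202 for H2-Ab1, 0.297 to 0.508 for H2-Aa and 0.237 to 0.413 for Cd74. H2-DMb1 had a lower ratio than H2-Ab1 in each library, 0.0157 to 0.118, on 2 to 21 UMIs. Without the highest migratory, cDC1-like and cDC2-like cell of each library the ratio of H2-Ab1 in depleted isotype was 0.0754, against 0.127 with all cells, and that of H2-DMb1 was 0.148 in anti-CTLA-4, 0.0413 in isotype and 0.00756 in the saline control. The median over the members was 0.180, 0.164, 0.199, 0.334 and 0.145 in depleted anti-CTLA-4, depleted isotype, anti-CTLA-4, isotype and the saline control, against 0.917 to 1.08 over all genes. The isotype library stood highest. There all 7 B lineage markers were detected in the migratory DC-like cells, at 6.78 UMIs per 10000 together, against 0.065 to 0.27 in the other libraries, and their part in the result was not tested. H2-Ob had 1 UMI in depleted anti-CTLA-4, 2 in depleted isotype, 1 in anti-CTLA-4 and 0 in the saline control, against 0.508 per 10000 in isotype. H2-Eb2, a class II beta chain outside the list, ran the other way: it stood at 0.822 to 2.02 in migratory DC-like cells, against 0.411 to 0.710 in conventional ones.

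Plasmacytoid DC-like cells had H2-Aa at 40.9 in depleted anti-CTLA-4 (21 cells), 36.4 in depleted isotype (27 cells), 48.2 in anti-CTLA-4 (32 cells), 49.2 in isotype (28 cells) and 48.4 in the saline control (23 cells), and Cd74 at 115, 99.5, 133, 131 and 126 in that order of libraries. By these sums the ranges of plasmacytoid and migratory DC-like cells overlap for H2-Aa and Cd74, but the cells of each class were spread differently. The 10 genes together had a median over cells of 208 to 278 per 10000 in plasmacytoid DC-like cells of the 5 libraries, against 30.2 to 108 in migratory DC-like cells, whose highest cells reached 868 to 1035. A small cluster led by Aire and Cdh2, which no marker list named, had Cd74 at 23.7 in depleted anti-CTLA-4 (26 cells), 29.8 in depleted isotype (25 cells), 20.8 in anti-CTLA-4 (11 cells), 45.6 in isotype (9 cells) and 30.5 in the saline control (9 cells). Monocyte or macrophage-like cells numbered 1 to 11 per library and varied widely, with Cd74 between 16.1 in depleted anti-CTLA-4 and 224 in isotype, each from 4 cells. Neutrophil-like and mast cell or basophil-like cells numbered at most 3 per library.

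Innate lymphoid cells with Il1rl1, 12 to 23 per library, had Cd74 at 2.11 in depleted anti-CTLA-4, 2.95 in depleted isotype, 0.982 in anti-CTLA-4, 1.29 in isotype and 2.34 in the saline control. H2-Aa in them rested on 1 to 5 UMIs per library. In depleted isotype 1 cell held 55.3% of the Cd74 UMIs, and without the cell highest in the 10 genes Cd74 stood at 1.41 there, against 1.00 in isotype without its highest cell.

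NK-like cells are described next because their mean was carried by few cells. Cd74 stood at 0.276 in depleted anti-CTLA-4 (65 cells), 0.203 in depleted isotype (54 cells), 9.03 in anti-CTLA-4 (53 cells), 3.98 in isotype (53 cells) and 21.4 in the saline control (41 cells). In anti-CTLA-4 3 cells held 97.0% of the Cd74 UMIs, in isotype 1 cell held 94.0% and in the saline control 2 cells held 97.9%. The other cells of the class stood at 0.292, 0.247 and 0.498 in these 3 libraries. The cells with more than 10 class II UMIs per 10000 held 27, 22 and 27 UMIs of B lineage markers in anti-CTLA-4, isotype and the saline control, and 211, 3 and 310 UMIs of dendritic cell markers. The part of these cells' other RNA in the class mean was not tested.

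**Figure D4:**
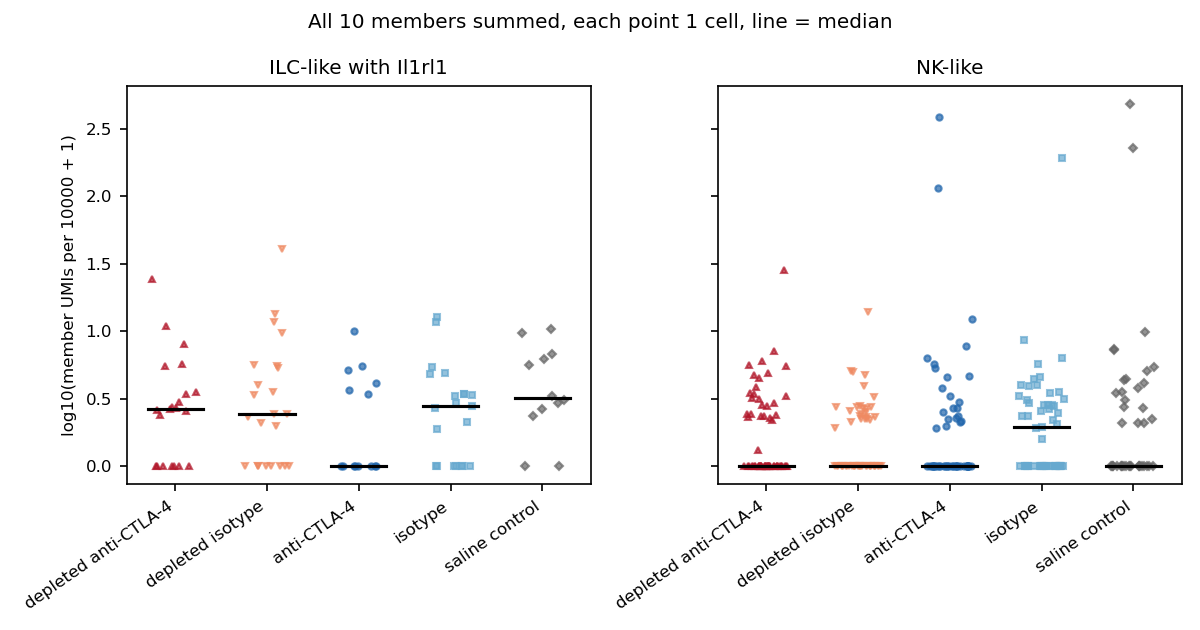
UMIs of the 10 genes together per 10000, plus 1, in single cells (log axis) of innate lymphoid cells with Il1rl1 (left) and NK-like cells (right), by library, 1 point per cell. In the class with Il1rl1 the highest cell reaches 40 and lies in depleted isotype.

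T cells of the mouse are not known for class II molecules, and droplets take up free RNA whatever cell they hold, so class II UMIs in T cells were set beside those of other B cell genes. T cells here are CD4 T-like and CD8 T-like cells together, 6325 in depleted anti-CTLA-4, 6392 in depleted isotype, 3944 in anti-CTLA-4, 3006 in isotype and 3428 in the saline control. The 10 genes fell into a low and a higher set when each level in T cells was given as a percent of the follicular B-like level of the same library. H2-Aa reached 0.223% in anti-CTLA-4, 0.215% in isotype and 0.168% in the saline control, and Cd74 0.264%, 0.209% and 0.187%. The 14 B cell genes fixed as a scale for free RNA had medians of 0.346%, 0.304% and 0.300% in anti-CTLA-4, isotype and the saline control, with Ighm at the top of their range at 24.1%, 25.6% and 24.4%. H2-DMa reached 8.81%, 9.11% and 9.50%, H2-Oa 5.87%, 4.92% and 5.05%, and H2-Ob 3.66%, 4.17% and 4.11% in anti-CTLA-4, isotype and the saline control. Against the level that the median share of the scale genes would give, H2-DMa was 25.4, 29.9 and 31.6 times as high in anti-CTLA-4, isotype and the saline control. H2-Aa, H2-Ab1, H2-Eb1 and Cd74 lay at 0.46 to 0.76 times that level.

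Depletion of B cells parted the same sets. H2-Aa in T cells stood at 0.0102 UMIs per 10000 in depleted anti-CTLA-4, against 0.171 in anti-CTLA-4, and at 0.0257 in depleted isotype, against 0.161 in isotype. Cd74 stood at 0.0702 in depleted anti-CTLA-4, against 0.697 in anti-CTLA-4, and at 0.133 in depleted isotype, against 0.548 in isotype. The saline control, with its B cells, was close to isotype, at 0.120 for H2-Aa and 0.467 for Cd74. H2-Aa fell to 0.0595 of the intact level (0.0420 to 0.0823) under anti-CTLA-4 and to 0.160 (0.126 to 0.200) under isotype, and Cd74 to 0.101 (0.0883 to 0.114) and 0.243 (0.218 to 0.270). H2-Aa, H2-Ab1, H2-Eb1 and Cd74 were the 4 that fell among 7 members with enough UMIs, under both antibodies, against 0.55% and 0.849% of all genes that fell under anti-CTLA-4 and under isotype. A single CD4 T-like cell of depleted isotype held 44.1% of the H2-Aa and 34.9% of the Cd74 UMIs of T cells there, 316 UMIs of the 10 genes together, beside 28 UMIs of B cell markers and 47 of T cell markers. Without the highest CD4 and the highest CD8 T-like cell of each library H2-Aa stood at 0.0144 in depleted isotype, against 0.145 in isotype, and Cd74 at 0.0830, against 0.499. The ratios under isotype were then 0.0995 (0.0734 to 0.133) for H2-Aa and 0.167 (0.146 to 0.189) for Cd74. The B cell gene Cd79a fell too, to 0.0934 under anti-CTLA-4 and 0.186 under isotype. The scale genes with at least 20 UMIs had median ratios of 0.186 under anti-CTLA-4 (14 genes) and 0.484 under isotype (11 genes). They did not fall as a block. Cd79b had ratios of 0.874 under anti-CTLA-4 and 0.807 under isotype, and Ighm 0.977 and 0.931, none past 1.5-fold. The median over all genes was 1.00 under anti-CTLA-4 and 1.03 under isotype.

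H2-DMa, H2-Oa and H2-Ob did not pass 1.5-fold in either comparison. H2-DMa stood at 0.561 in depleted anti-CTLA-4, against 0.509 in anti-CTLA-4, and at 0.486 in depleted isotype, against 0.519 in isotype, ratios of 1.1 (1.02 to 1.19) and 0.938 (0.868 to 1.01). H2-Oa stood at 0.257 in depleted anti-CTLA-4, against 0.276 in anti-CTLA-4, and at 0.228 in depleted isotype, against 0.229 in isotype, ratios of 0.932 (0.842 to 1.03) and 0.997 (0.887 to 1.12). H2-Ob had ratios of 0.859 (0.773 to 0.956) under anti-CTLA-4 and 0.956 (0.860 to 1.06) under isotype. H2-DMb1, H2-DMb2 and Ciita had too few UMIs in T cells for a call, with Ciita at 0.00198 in depleted anti-CTLA-4, 0.00227 in depleted isotype, 0.00370 in anti-CTLA-4, 0.00431 in isotype and 0.00190 in the saline control. Of 28 other pathway genes Cd83 alone passed, at 0.502 under anti-CTLA-4 and 0.525 under isotype.

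Some genes overlap others on the chromosome, which matters for these low values. The annotation places 3122 bases of H2-DMa inside Brd2, a gene that T cells express at 1.32 to 1.44 per 10000, and the whole of H2-Oa (2856 bases) inside BC051537, which had at most 0.01 per 10000 in T cells. H2-Ob overlaps no gene. Whether the counting used strand is not given in the sources used here, so reads of H2-DMa and Brd2 may be partly exchanged.

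**Figure D5:**
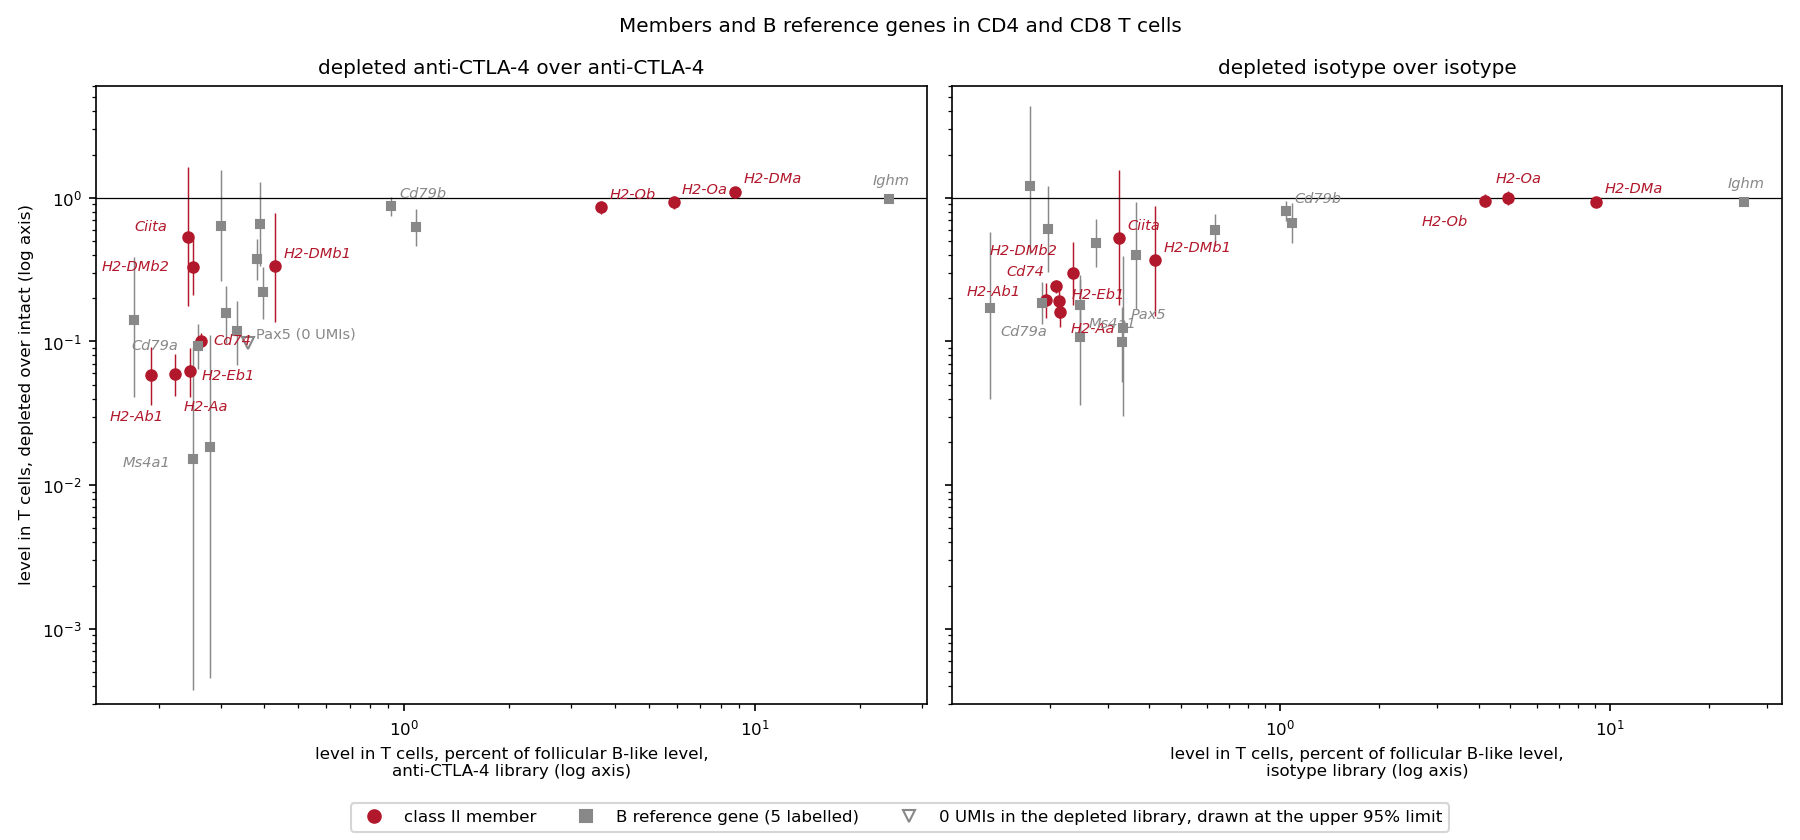
Each of the 10 genes and the B cell scale genes in T cells: level as a percent of the follicular B-like level (x, log axis) against the ratio of depleted over intact (y, log axis), left under anti-CTLA-4 and right under isotype, with exact 95% intervals for counting error. H2-Aa, H2-Ab1, H2-Eb1 and Cd74 lie at the lower left with Cd79a and Ms4a1, and H2-DMa, H2-Oa and H2-Ob near a ratio of 1 at 3.66% to 9.11%. The scale genes Cd79b and Ighm also lie nearer to a ratio of 1, at 0.807 to 0.977.

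Counted per cell, after thinning to 2000 UMIs, 1.90% of T cells had a UMI of H2-Aa, H2-Ab1, H2-Eb1 or Cd74 in depleted anti-CTLA-4, 2.22% in depleted isotype, 18.6% in anti-CTLA-4, 11.9% in isotype and 13.5% in the saline control (unthinned 4.95%, 5.91%, 39.0%, 29.5% and 32.9%). A UMI of H2-DMa, H2-Oa or H2-Ob was found in 17.9%, 17.3%, 18.7%, 17.5% and 16.8% of the same libraries' T cells (unthinned 42.8%, 40.9%, 38.3%, 41.3% and 38.6%). The first share was lower in both depleted libraries than in any library with B cells, while the second lay between 16.8% and 18.7% in all 5. Cd79a, for comparison, was in 0.176%, 0.206%, 1.90%, 1.15% and 1.87%. T cells had medians of 5181 to 6038 UMIs per cell, and 47 to 83 T cells per library were too shallow to be thinned.

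Among the libraries with B cells, T cells of the glioma-bearing isotype nodes had no member past 1.5-fold over the saline control (0 of 7, against 1.41% of all genes), nor had anti-CTLA-4 over isotype (0 of 7, against 1.08%), with Cd74 at 1.27. Split by type, H2-Aa (1.92), H2-Eb1 (1.70) and Cd74 (1.67) rose in CD4 T-like cells anti-CTLA-4 over isotype, 3 of 7 against 1.13% of all genes that rose. The B cell scale genes with enough UMIs (9 genes) had a median ratio of 1.56 there, and Cd79a stood at 0.0998 in anti-CTLA-4, against 0.0640 in isotype. H2-Aa (1.87), H2-Ab1 (2.05) and H2-Eb1 (1.53) rose in CD8 T-like cells isotype over saline control, 3 of 7 against 0.727%, and without the highest cell of each library H2-Eb1 had 1.44 (1.09 to 1.90), below the threshold. The scale genes (11 genes) had a median ratio of 1.25 in that comparison, with Cd79a at 0.0764 in isotype, against 0.0611 in the saline control. The part of B cell RNA in these rises was not tested. All belong to the set that fell with depletion. The isotype values here are without the unnamed T cell cluster led by H2-Aa and Cd74, and its effect on these ratios was not tested. Depleted anti-CTLA-4 over depleted isotype, H2-Aa (0.395), H2-Eb1 (0.381) and Cd74 (0.528) fell, 3 of 6 against 0.234% of all genes that fell. Those falls rest on the high CD4 T-like cell of depleted isotype: without the highest CD4 and CD8 T-like cell of each library H2-Aa had a ratio of 0.708 (0.462 to 1.08), Cd74 0.846 (0.719 to 0.995) and H2-Eb1 0.535 (0.334 to 0.843), so that H2-Eb1 alone stayed past 1.5-fold.

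H2-Oa differed in every library between CD8 T-like cells and the CD4 T-like class, which is without effector and Treg-like cells. It stood at 0.375 in CD8 T-like cells, against 0.0841 in CD4 T-like cells, in depleted anti-CTLA-4, at 0.334 against 0.0904 in depleted isotype, at 0.395 against 0.0952 in anti-CTLA-4, at 0.323 against 0.0754 in isotype and at 0.275 against 0.0654 in the saline control. The ratio of CD8 over CD4 was 4.46, 3.69, 4.15, 4.29 and 4.2 in that order, and the values of the types do not overlap. H2-DMa was higher in CD8 T-like cells as well, with ratios of 1.72, 1.63, 1.58, 1.72 and 1.74, and H2-Ob was nearly level, between 1.06 and 1.25. H2-DMa was not even within the types. The CD8 T-like cluster led by Klra7 and Klra1 had it at 0.193 to 0.292, below the CD4 T-like level of each library. Effector CD4 T-like cells had it at 0.600 to 0.898, above the CD8 T-like level of each library. H2-Oa and H2-DMa were the members that rose in depleted anti-CTLA-4, depleted isotype, anti-CTLA-4 and the saline control, 2 of 4, 2 of 5, 2 of 7 and 2 of 7, against 6.01%, 5.9%, 5.44% and 5.44% of all genes that rose. In isotype 5 of 7 rose, against 5.3%, and without the highest cell of each type H2-Eb1 left these 5, at 1.47 (1.06 to 2.08). Cd74 fell to 0.512 of its CD4 level (0.402 to 0.653) in CD8 T-like cells of depleted anti-CTLA-4, 1 of 4 members against 6.17% of all genes that fell. In depleted isotype Cd74 (0.347) and H2-Aa (0.348) fell, 2 of 5 against 5.65%, but without the highest cell of each type the ratios there were 0.646 (0.517 to 0.807) for Cd74 and 0.975 (0.560 to 1.72) for H2-Aa. Effector CD4 T-like cells had H2-Oa at 0.447 in depleted anti-CTLA-4, 0.486 in depleted isotype, 0.406 in anti-CTLA-4, 0.452 in isotype and 0.339 in the saline control, above each CD4 T-like value. Treg-like cells had it at 0.421, 0.353, 0.434, 0.373 and 0.410 in that order. Both classes lay above the CD8 T-like value of the same library, so the difference is not one of all CD4 cells against CD8 cells.

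Treg-like cells, the suppressive CD4 cells marked by Foxp3, held Cd74 RNA also without B cells. Cd74 stood at 1.36 in Treg-like cells, against 0.0987 in CD4 T-like cells, in depleted anti-CTLA-4, and at 1.43 against 0.211 in depleted isotype. Effector CD4 T-like cells lay between, with Cd74 at 0.626 in depleted anti-CTLA-4 and 0.495 in depleted isotype. With B cells present it stood at 2.17 against 0.747 in anti-CTLA-4, 1.95 against 0.446 in isotype and 2.08 against 0.535 in the saline control. The ratio of Treg-like over CD4 T-like cells was 13.8 (11.6 to 16.5) in depleted anti-CTLA-4, 6.78 in depleted isotype, 2.90 in anti-CTLA-4, 4.36 in isotype and 3.88 in the saline control. Cd74 and H2-Oa were the 2 of 4 members that rose in either depleted library, against 16.8% and 15.8% of all genes that rose in depleted anti-CTLA-4 and depleted isotype. In anti-CTLA-4 3 of 7, in isotype 5 of 6 and in the saline control 2 of 5 rose, against 17.2%, 16.4% and 17%. Without the highest cell of each type the ratio of Cd74 in depleted isotype was 12.5 (10.5 to 14.96), close to that of depleted anti-CTLA-4. In isotype the highest Treg-like cell held 177 UMIs of the 10 genes and 28 of B cell markers. Without the highest cell of each type Cd74 there had a ratio of 3.40 (2.90 to 3.98), H2-Aa 1.57 (1.00 to 2.40), H2-Ab1 1.30 (0.699 to 2.33) and H2-Eb1 1.39 (0.794 to 2.35).

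H2-Aa, whose product CD74 binds, was low relative to Cd74 in Treg-like cells. Effector CD4 T-like cells shared this after depletion, with H2-Aa at 0.0138 in depleted anti-CTLA-4 and 0 in depleted isotype. H2-Aa had 0.00853 UMIs per UMI of Cd74 in Treg-like cells of depleted anti-CTLA-4, 0.0491 in depleted isotype, 0.117 in anti-CTLA-4, 0.157 in isotype and 0.0859 in the saline control. Without the highest Treg-like cell H2-Aa stood at 0.0352 and Cd74 at 1.30 in depleted isotype, and at 0.159 and 1.51 in isotype. In follicular B-like cells it had 0.290, 0.271, 0.291, 0.286 and 0.286 in the same libraries, and in conventional DC-like cells 0.452, 0.424, 0.440, 0.399 and 0.440. Depleted over not depleted, Cd74 in Treg-like cells was 0.628 (0.559 to 0.706) under anti-CTLA-4 and 0.735 (0.645 to 0.838) under isotype, while H2-Aa was 0.0459 and 0.229. Thinned to 2000 UMIs, 16.9% of Treg-like cells had a Cd74 UMI in depleted anti-CTLA-4, 17.8% in depleted isotype, 28.0% in anti-CTLA-4, 23.2% in isotype and 25.1% in the saline control (unthinned 33.2%, 32.5%, 46.8%, 38.2% and 42.0%). Cd79a was thinned in 0%, 0.498%, 2.2%, 1.08% and 1.09% of them.

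Across the 37 sums of a class in a library with at least 50 cells, the genes whose levels were most like Cd74, by Pearson correlation of log2(CPM + 1), were Blnk (0.972), Fcmr (0.970), Ebf1 (0.967), Spi1 (0.966), Cd79a (0.965), Btk (0.965) and Bank1 (0.964). For Ciita they were Srpk3 (0.993), March1 (0.992), Spi1 (0.992), Bcl11a (0.992) and Cd180 (0.990). The other members correlated with Cd74 at 0.883 (H2-Ob) to 0.973 (H2-DMb2). These sums share libraries and are mostly B cells against T cells, so the correlations describe that division, and no dendritic class was large enough to enter.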

How the data were processed

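Single-cell 5' expression was measured in 5 libraries and B cell receptors in 3, 1 per group. The expression files deposited by the authors are raw UMI counts for every gene in every barcode. Per the file headers they were written by Cell Ranger 7.0.1, and the submitters' processing notes also name bcl2fastq 2.20.0 and build mm10. How reads that match several genes were treated, and which annotation was used, is not given in the sources used here. Receptor files were deposited as counts of UMIs and reads for each contig.

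Barcodes with at least 500 genes and at most 10% mitochondrial UMIs were kept. Those with the highest Scrublet scores were removed as doublets, 0.8% per 1000 barcodes. The reason was that the automatic threshold marked none in either depleted library, against 3.21% to 4.22% in the libraries with B cells. This left 8362, 8305, 10599, 8847 and 9030 cells in the depleted anti-CTLA-4, depleted isotype, anti-CTLA-4, isotype and saline control libraries. Clusters came from 2000 variable genes without the 10 members and receptor segments, 30 components, 15 neighbours and Leiden resolution 1 (scanpy 1.11.5, igraph 0.11.9, scikit-learn 1.9.0), and from reclustering, at resolution 2 for the cells that were neither B nor T cells. They were named from fixed markers, and a difference from the study may come from these rebuilt names.

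UMIs were summed per class and library and given per 10000 with exact Poisson 95% intervals, and ratios with exact conditional binomial ones (scipy 1.17.1). Medians used members with at least 20 UMIs over both sums, and counts of calls needed 50 cells in both classes, plasma cell-like and saline control germinal centre cells excepted. A sum of 0 has a floor of 3 counts. The named genes were all 10 members, those of a list of 35 pathway genes that passed the call, and 7 of the 8 genes most like Cd74 and the 5 most like Ciita. Some genes and 1 cell class are not reported here. The members, lists and alternatives were chosen with earlier results of these data known. The call rule alone was tested on simulated counts, which had no spread between cells beyond counting error. Since a group has 1 library, no p-values are given, and intervals cover counting error only.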

Additional observations from a re-analysis of the deposited data

Results flagged for a closer look

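In 3 cases the change with anti-CTLA-4 over isotype ran one way after depletion and the opposite way with B cells, with both counting intervals away from 1. The difference between these changes was not tested, since each rests on 1 library per group. H2-Ab1 in conventional DC-like cells had a ratio of 1.078 (1.036 to 1.121) after depletion, against 0.8876 (0.8163 to 0.9639) with B cells. Cd74 in CD4 T-like cells had 0.4679 (0.3863 to 0.5647) after depletion, against 1.674 (1.461 to 1.922) with B cells, and in CD4 and CD8 T cells together 0.5283 (0.4556 to 0.6115), against 1.273 (1.175 to 1.38). Without the highest CD4 and the highest CD8 T-like cell of each library, the ratio after depletion was 0.9512 (0.7641 to 1.183) in CD4 T-like cells and 0.8461 (0.7192 to 0.9948) in CD4 and CD8 T cells together. In depleted isotype 1 cell held 50.83% of the Cd74 UMIs of CD4 T-like cells. In those T cells the 7 B lineage markers summed to 0.1404 UMIs per 10000 in depleted anti-CTLA-4 and 0.1425 in depleted isotype, and to 0.352 in anti-CTLA-4 and 0.301 in isotype.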

How the results depend on the processing

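No paired analysis was possible because each group has 1 library. Of the summary values recomputed under 16 alternatives, 176 stayed within their counting interval, 36 moved and 1 reversed. Of the values of single genes, 290 stayed, 38 moved and 2 reversed. Where no other cause is named, it was not tested. All values that follow are median log2 ratios of the members unless said otherwise, and the value as reported stands in brackets.

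Germinal centre over follicular B-like cells stayed between -0.86 and -1.08: -1.072 with finer clusters (resolution 2), -1.084 with totals without receptor segments, mitochondrial and ribosomal protein genes and -1.074 with each cell weighted equally in isotype [-1.004], and -0.9492 with those totals and -0.9061 with median-ratio size factors in anti-CTLA-4 [-0.8595]. Plasma cell-like cells of isotype gave -3.397 with those totals and -2.875 with size factors [-4.013]. Memory or innate-like cells of anti-CTLA-4 gave -0.2767 with at least 1000 genes and at most 5% mitochondrial UMIs per cell, -0.3043 with finer clusters, -0.3011 with those totals and -0.2735 with size factors [-0.3987]. Follicular B-like cells gave 0.09486 with finer clusters and 0.09466 with size factors isotype over saline control [0.06785], and -0.009517 with the stricter cell filter and -0.03166 with size factors anti-CTLA-4 over isotype [0.01655].

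Migratory DC-like cells were least stable. Depleted isotype over isotype gave -0.05951 with the stricter filter and reversed to 0.05365 with the members among the variable genes [-0.6512]. With those genes depleted anti-CTLA-4 over anti-CTLA-4 gave -0.9205 [-0.3027]. Depleted anti-CTLA-4 over depleted isotype gave 0.7281 without doublet removal, 0.4004 with finer clusters, -0.511 with the members among the variable genes and 0.02593 without the highest cell of each library [-0.09193]. H2-DMb2 in cDC1-like over cDC2-like cells reversed with finer clusters, to 0.1151 in anti-CTLA-4 [-1.107] and 2.373 in isotype [-1.392].

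T cells over follicular B-like cells in isotype gave -9.169 without doublet removal, -9.044 with the members among the variable genes and -9.395 without the T cells at or above the 95th percentile of class II UMIs [-8.504], and -8.923 without those T cells in anti-CTLA-4 [-8.602]. Depleted anti-CTLA-4 over anti-CTLA-4 in T cells gave -3.312 with at least 100 UMIs [-1.594], a minimum that leaves fewer genes. The share of T cells with a UMI of any of the 10 genes depends on depth by construction: thinned to 1000 UMIs it was 10.59%, 9.991%, 19.73%, 15.49% and 14.87% in depleted anti-CTLA-4, depleted isotype, anti-CTLA-4, isotype and the saline control, and unthinned 45.83%, 44.73%, 62.55%, 58.25% and 59.07% [19.2%, 18.89%, 33.5%, 27.51% and 28.79%]. Leaving out the follicular B-like cluster that came almost wholly from isotype, chosen after seeing the data, moved none of the summary values of these B cells. The other such cluster, led by H2-Aa, H2-Ab1, Cd74 and H2-Eb1, was in no comparison from the start. How the T cell values would change with its 222 isotype cells among the T cells was not tested.

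Depth limits the dendritic and plasma cell-like classes, with 4 to 47 cells per library, and the genes H2-DMb1 and Ciita in them.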
